A study of Mus musculus with 14 samples.

Results

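The cytosolic ribosomal protein genes were described in mammary tissue of lactating mice, as the genes whose symbol names a protein of the small subunit (*Rps* genes and *Rpsa*) or of the large subunit (*Rpl* genes and *Rplp0* to *Rplp2*), without the *Rps6k* kinases. The rule took 82 of the 20515 genes with a usable symbol, 32 of the small and 50 of the large subunit, and used no measured value. All 82 matched a RefSeq gene, on 19 chromosomes. Total RNA-seq was performed on mammary glands of 2 wt/Wap-Tbrg4 mice (labelled WT_wTbrg4) on day 10 of lactation (L10). The line was made in C57BL/6 mice by CRISPR-Cas9. It carries a deletion that joins the first exons of *Wap*, a milk protein gene, and *Tbrg4*, so that the regulatory region of *Wap* drives a hybrid gene. The mice were heterozygous, with 1 intact *Tbrg4* allele and 1 fusion allele. Both libraries are of this genotype and stage, so no groups were compared, no p-value is given, and the spread between the mice is the only error available. The labels do not say how the animals were related, and pooling is not mentioned.

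A ribosome carries each ribosomal protein once, apart from the acidic stalk proteins of the large subunit, which are present as pairs. The mRNAs begin with a run of pyrimidines, the terminal oligopyrimidine (TOP) motif, through which their translation follows nutrient signaling. Many of the genes are short, with introns that host small nucleolar RNAs (snoRNAs), which guide the modification of ribosomal RNA. In mammals most of them also have processed copies, intron-less insertions of the spliced mRNA elsewhere in the genome, which a short sequencing read cannot always be told from. A secreting mammary epithelium makes large amounts of protein, for which ribosomes are needed.

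To see how much of each mRNA can be told apart by a short read, each spliced RefSeq transcript was cut into all overlapping windows of 50 bases, and each window was searched on both strands of GRCm38. A window found at no other place was called single-place. The first 120 coding bases, which can cross introns, are shown for genes that differ in this respect and on which the values below turn. Capitals mark bases that lie in at least 1 single-place window, including windows that begin in the leader. Lower case marks bases for which every window is also found elsewhere. The first, *Rpl8* (chr15:76904313-76904432, + strand), was among the members with the highest exon signal.
Rpl8: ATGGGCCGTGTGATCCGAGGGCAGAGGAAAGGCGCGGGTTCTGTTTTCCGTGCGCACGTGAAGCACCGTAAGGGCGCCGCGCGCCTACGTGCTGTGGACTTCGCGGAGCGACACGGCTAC
The next are a parent and its paralog, *Rps27* (chr3:90213040-90213615, - strand) and *Rps27l* (chr9:66946175-66947591, + strand), of which the paralog had the higher signal.
Rps27: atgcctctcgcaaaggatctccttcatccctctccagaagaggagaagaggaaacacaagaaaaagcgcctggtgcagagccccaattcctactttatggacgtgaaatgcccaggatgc
Rps27l: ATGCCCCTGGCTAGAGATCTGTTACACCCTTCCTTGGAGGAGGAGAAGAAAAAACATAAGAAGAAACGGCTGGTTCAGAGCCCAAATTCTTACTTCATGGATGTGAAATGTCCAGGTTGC
In *Rpl39* (chrX:37082737-37085127, - strand) and *Rpl39l* (chr16:10174310-10174429, + strand) the parent had the signal and the paralog was listed at 0.
Rpl39: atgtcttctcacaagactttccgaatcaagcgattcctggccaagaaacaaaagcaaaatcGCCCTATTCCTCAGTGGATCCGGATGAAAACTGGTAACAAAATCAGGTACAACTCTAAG
Rpl39l: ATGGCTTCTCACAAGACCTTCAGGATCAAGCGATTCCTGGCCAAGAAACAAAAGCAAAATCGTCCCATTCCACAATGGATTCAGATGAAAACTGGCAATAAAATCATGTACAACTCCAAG
The exons of *Rpl9* (chr5:65390781-65390991, - strand) were listed at 0 in both mice although its introns had signal, and those of *Rpl12* (chr2:32961803-32962582, + strand) were at 0 in 1 mouse.
Rpl9: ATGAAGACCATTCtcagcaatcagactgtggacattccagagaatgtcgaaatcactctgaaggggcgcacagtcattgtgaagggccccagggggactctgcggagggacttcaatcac
Rpl12: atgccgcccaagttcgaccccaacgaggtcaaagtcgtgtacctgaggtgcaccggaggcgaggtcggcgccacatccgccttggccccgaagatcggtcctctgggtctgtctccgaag
*Rps4x* (chrX:102187964-102189300, - strand) and *Rpl7a* (chr2:26910828-26911122, + strand) held exon signal with few or no single-place bases in this stretch. The introns of *Rpl7a* had high signal as well.
Rps4x: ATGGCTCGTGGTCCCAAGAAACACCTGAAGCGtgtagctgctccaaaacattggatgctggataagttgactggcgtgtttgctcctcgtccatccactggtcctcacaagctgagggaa
Rpl7a: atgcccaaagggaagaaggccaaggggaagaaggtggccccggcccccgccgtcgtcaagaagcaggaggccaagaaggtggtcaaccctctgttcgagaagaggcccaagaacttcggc

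Values are FPKM, fragments per kilobase of feature scaled by the authors with DESeq2 and deposited to 1 decimal, for the collapsed exons and for the introns between them. Exon FPKM summed to 853174 and 1788338 in replicates 1 and 2. The 5 markers of milk secreting epithelium summed to 290119.5 and 725048.6 exon FPKM, the 4 adipocyte markers to 132.4 and 155.5, the 4 immune cell markers to 5.8 and 5.4, the 3 fibroblast markers to 137.6 and 133.2, the 2 endothelial markers to 32.1 and 30.5, and the 3 myoepithelial markers to 24.5 and 8.9, with 1 myoepithelial marker at 0 in both mice. In whole tissue, fewer cells of a type and less RNA per cell cannot be told apart. The spacing of low values in short features gave what 1 counted read is worth, 0.0995 FPKM over 1 kb in replicate 1 and 0.1975 in replicate 2, and read numbers below are estimates from this spacing and RefSeq lengths. By these estimates exons held about 12110000 and 11260000 reads and introns 2660000 and 1310000. The exon totals were thus close while each read counts for more FPKM in replicate 2, so FPKM are not per read of the library and differences between the mice depend on the scaling. The 82 genes held 0.694% and 0.239% of the summed exon FPKM, a mean of 0.467% ± 0.321 (SD, n = 2). Without the 10 highest genes of the table, all of them above every member, the shares were 3.38% and 2.54%.

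The exon signal of the 82 genes differed widely from gene to gene. Their mean exon FPKM ran from 0 to 534.9, with a median of 12.2 and quartiles at 0.675 and 76.9. The median was 13.3 in replicate 1 and 10.8 in replicate 2, against 3.6 and 3.2 over the 13219 genes with exon or intron signal in both mice. The 10 highest members held 62.5% of the summed member signal in replicate 1 and 56.9% in replicate 2. The order of the members was similar in both mice (Spearman's rho of 0.96 over 82 genes, which share libraries and are not replicates). In the plot of members by subunit, exon values fell from 672.6 to 0 while the middle 50% of mean intron values lay between 0.8 and 1.9 FPKM.

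**Figure D1:**
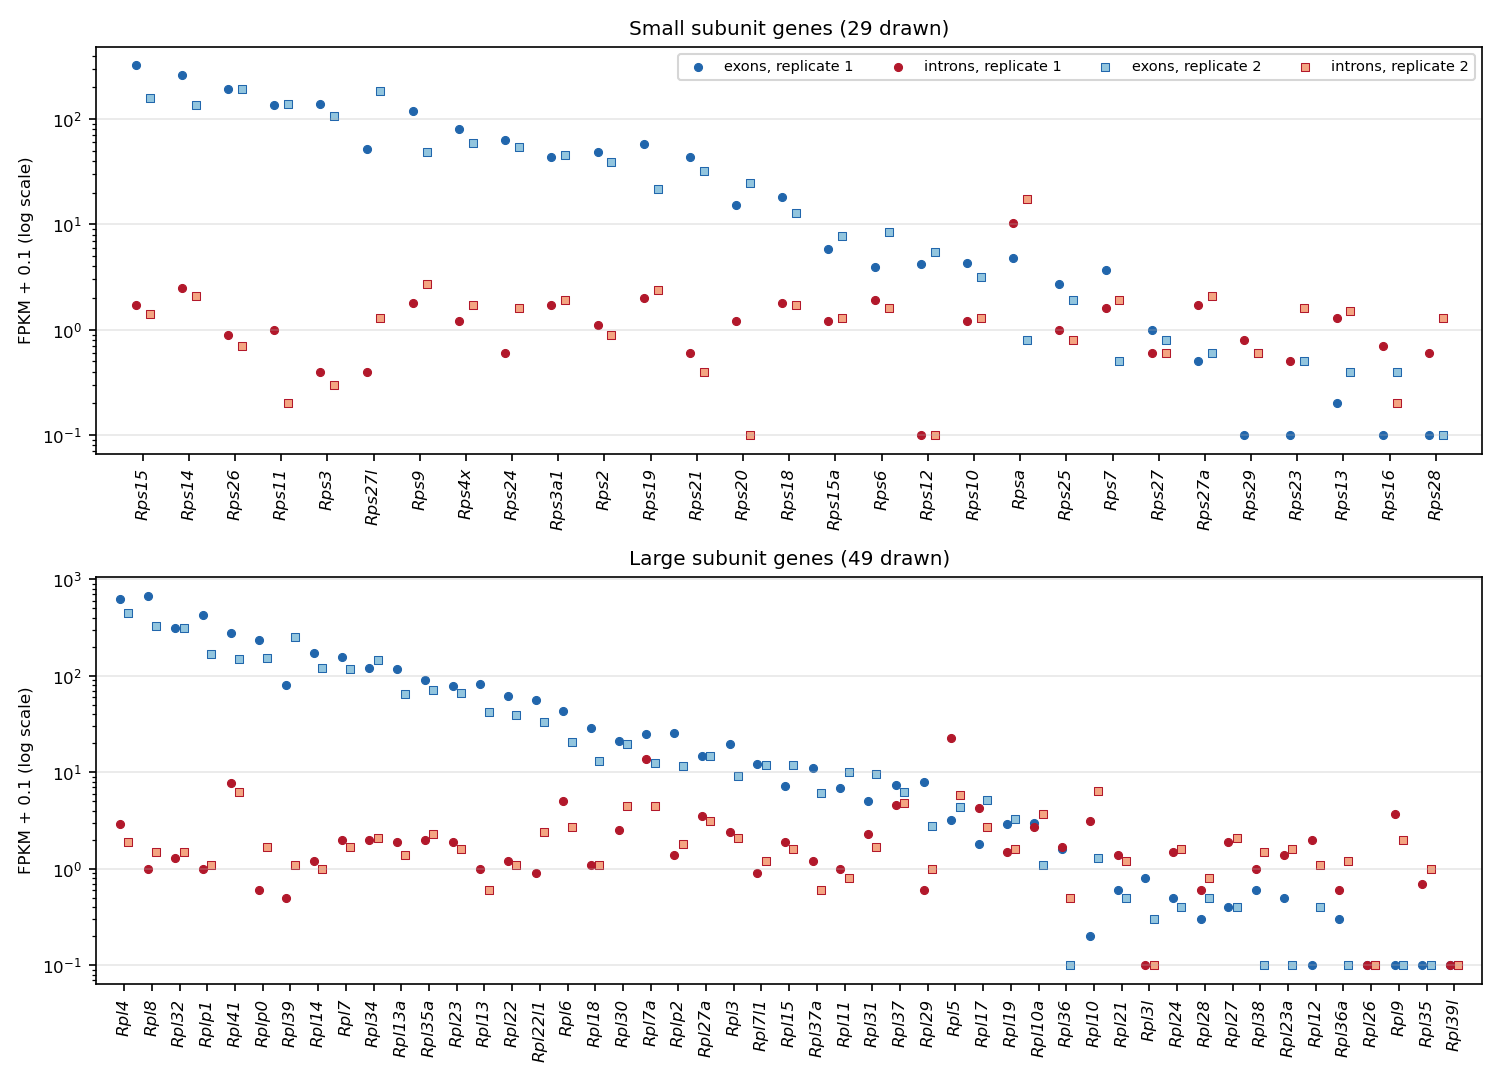
Exon (blue) and intron (red) FPKM + 0.1 on a log scale for 29 small subunit genes (upper panel) and 49 large subunit genes (lower panel), ordered by mean exon FPKM, with circles for replicate 1 and squares for replicate 2. Exon values run from 672.6 in *Rpl8* to 0 in genes such as *Rpl9*, and intron values do not follow this order.

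Among the small subunit genes, *Rps15*, whose product lies in the head of the subunit, had exon signal of 323.0 FPKM in replicate 1 and 158.8 in replicate 2. *Rps14*, which is needed for maturation of the small subunit, had 260.0 and 136.9. *Rps26*, which contacts the mRNA at the exit channel, had 194.0 and 193.9 and was the most even of the high members. At the other end, *Rps28* was listed at 0 in both mice, and *Rps29*, *Rps23* and *Rps16* at 0 in replicate 1. *Rpsa*, the laminin receptor homolog that binds late in assembly, had exon values of 4.7 and 0.7, below its intron values of 10.3 and 17.4. *Rps6*, whose phosphorylation is a common readout of mTOR signaling, had 3.8 and 8.4.

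The large subunit genes held the highest values of the family. *Rpl4*, whose product lines the exit tunnel, had 621.3 and 448.5 exon FPKM (534.9 ± 122, rank 38 of all genes), and *Rpl8*, which lies near the peptidyl transferase center, 672.6 and 324.8 (498.7 ± 246). *Rpl8* was the higher of the 2 in replicate 1 and *Rpl4* in replicate 2, so their order is not set. *Rpl32* had 309.9 and 315.9, and *Rpl41*, which encodes the shortest ribosomal protein, 275.7 and 149.4. The genes of the acidic stalk, which recruits translation factors, had unequal exon signal. *Rplp0*, the base of the stalk, had 236.0 and 152.4, *Rplp1* had 424.5 and 168.4, and its partner *Rplp2* had 25.2 and 11.6. Both mice had *Rplp2* below the other stalk genes. Single-place windows made up 48.8% of *Rplp0*, 40.1% of *Rplp1* and 29.4% of *Rplp2*, and their part in these values was not tested. *Rpl9*, *Rpl35*, *Rpl26* and the paralog *Rpl39l* were listed at 0 in both mice.

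The subunits did not separate. The median of mean exon FPKM was 17.7 for the small subunit (16.8 in replicate 1 and 17.1 in replicate 2) and 10.7 for the large subunit (11.6 and 9.8). The middle 50% of the genes spanned 1.7 to 79.6 in the small and 0.5 to 69.7 in the large subunit. The small subunit held 35.4% and 37.0% of the summed member exon signal with 32 of the 82 genes. Median intron FPKM was 1.15 and 1.45. The median log2 ratio of exon to intron FPKM, with 0.1 added to both, was 4.2 in the small and 2.61 in the large subunit, against 3.09 over the 13219 genes with signal. In single mice these medians were 3.75 and 3.66 for the small, and 3.01 and 2.39 for the large subunit. The small subunit median was thus higher in both mice, but both sets ran from 0, up to means of 308.9 and 534.9 exon FPKM.

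Exon signal was called kept where (exon FPKM + 0.1)/(intron FPKM + 0.1) was at least 10 in both mice. Of the 82 genes, 34 kept exon signal, 16 of the small and 18 of the large subunit. Among all 13219 genes with signal in both mice, 36.8% did so, and 34 of the 80 members in that set is close to this background. Among genes whose intron FPKM averaged 0.5 or more the background was 49.5%, and 31 of 75 members lay below it. The kept members had a median exon FPKM of 104 and a median intron FPKM of 1.10. *Rpl18* and *Rps20* lay just inside the limit, with ratios in their lower mouse of 11.9 and 12.8. *Rpl7l1*, *Rpl37a* and *Rps19* lay just outside, with 9.92, 9.33 and 8.96.

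The opposite pattern was more frequent in the family than in the table. Exon FPKM was below intron FPKM in both mice in 19 members, 6 of the small and 13 of the large subunit. Among all genes with signal in both mice 0.862% showed this (114 genes, of which the 19 members are part), and 1.37% among genes whose introns averaged 0.5 FPKM or more. Member exons are shorter than those of the typical gene, so a given FPKM rests on fewer reads. The comparison was not adjusted for this. The 19 genes had a median exon FPKM of 0.25 and a median intron FPKM of 1.40, which is above the intron median of the kept members. By the estimate, their exons held 182 and 68 reads and their introns 2248 and 709. Most of these reads came from *Rpl5* and *Rpsa*. *Rpl5* held 63 and 44 exon reads and 1461 and 186 intron reads. *Rpsa* held 88 and 7 exon reads and 284 and 242 intron reads. The sums thus do not describe the typical gene of the 19. The other 29 members comprised 2, *Rpl26* and *Rpl39l*, that had no signal in either feature, and 27 that met neither rule in both mice. Some of the 27 met a rule in 1 mouse only, such as *Rps19* with ratios of 29.3 and 8.96 and *Rps7* with 2.31 and 0.263.

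**Figure D2:**
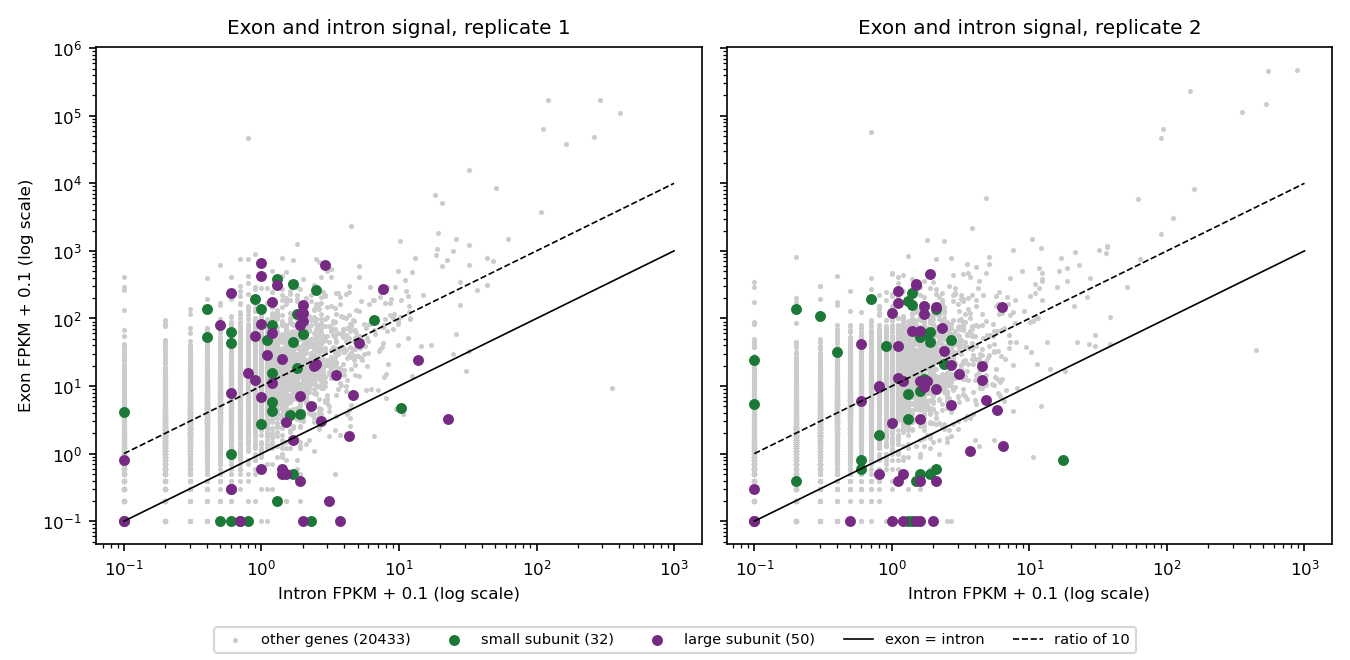
Exon against intron FPKM, each + 0.1 on a log scale, in replicate 1 (left) and replicate 2 (right), for the small subunit genes (green), the large subunit genes (purple) and the 20433 other genes (gray). Of the 82 members, 34 lie on or above the dashed line (ratio of 10) in both mice and 19 lie below the solid line (exon equal to intron) in both.

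Among the lowest ratios was that of *Rpl9*. This gene, which encodes a protein of the stalk base region, had no exon signal and introns of 3.6 and 1.9 FPKM, about 85 and 23 reads. A floor of 3 reads corresponds to 0.412 and 0.817 exon FPKM for *Rpl9*, so that values under these are not told from the listed 0. This floor covers counting error only. *Rpl10*, which joins the large subunit late and is needed for its release into translation, had exons of 0.1 and 1.2 and introns of 3.0 and 6.3. *Rpl12*, next to the stalk, had exons of 0 and 0.3 and introns of 1.9 and 1.0. *Rpl27* (0.3 in both mice), *Rpl23a* (0.4 and 0), *Rps13* (0.1 and 0.3) and *Rpl38* (0.5 and 0) had exons at or below 0.5 and mean introns between 1.15 and 1.90. *Rpl23a* sits at the tunnel exit where nascent chains leave. *Rpsa* and *Rpl5* were also among the 10 lowest among members whose introns averaged 1 FPKM or more. *Rps28* had introns of 0.5 and 1.2 and *Rpl35* of 0.6 and 0.9 with exons at 0. The floor of 3 reads, 0.754 and 1.496 exon FPKM in *Rps28* and 0.660 and 1.311 in *Rpl35*, lay above these intron values. Their exons are thus not shown to be below their introns. The same held for *Rpl28* and *Rpl36a* in both mice, for *Rps23* in replicate 1 and for *Rpl36* in replicate 2. Counts of members with exons below introns are of listed values and include these genes.

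Intron signal was highest in *Rpl5*, whose product carries the smallest ribosomal RNA into the large subunit, with 22.5 and 5.7 FPKM. It was 10.3 and 17.4 in *Rpsa*, 13.7 and 4.4 in *Rpl7a*, 7.6 and 6.2 in *Rpl41*, and 3.0 and 6.3 in *Rpl10*. The mice differed up to 3.95-fold here, in *Rpl5*, and their order was not the same in each gene. Of these 5 genes all but *Rpl41* host annotated snoRNAs, 3 in *Rpl5*, 3 in *Rpsa*, 4 in *Rpl7a* and 1 in *Rpl10*. The 30 snoRNA hosts among the members had a median intron FPKM of 1.52 and the 52 others of 1.15, with upper quartiles of 3.40 and 1.68. Hosts kept exon signal in 14 of 30 and the others in 20 of 52, both near the 36.8% and 49.5% given above for all genes. How reads on an intronic snoRNA were counted is not given in the sources used here, and the part of snoRNAs in the intron values was not tested. In addition, 13 members overlap a gene on the opposite strand in RefSeq, among them *Rpl5*, *Rpsa*, *Rpl32* and *Rpl23a*. The kit marks strand, but the strand setting of the counting is not given in the sources used here, so for these genes reads of the overlapping gene may be included.

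A near-identical copy was found for 77 of the 82 members, defined as another place where at least 50% of the coding sequence aligned at an identity of at least 95%. This was 93.9% of the members, against 6.1% of 18310 genes with a coding sequence. The 5 members without one included *Rpl8*, described above, and the paralogs *Rps27l*, *Rpl3l* and *Rpl39l*. The 16 members with 1 or 2 copies had a median exon FPKM of 47.2 and none had exons below introns in both mice. The 18 members with 3 to 5 copies had a median of 10.6, the 28 with 6 to 9 copies 3.35, and the 15 with 10 to 56 copies 9.40. Across the 82 members Spearman's rho between copies and mean exon FPKM was -0.28, and between copies and mean intron FPKM 0.26. The decline over the bins was thus not steady, and copies that escape the definition were not counted.

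The share of single-place windows, a measure chosen after seeing the data, ordered the exon values more closely. Its median was 30.4% over the members, and 53 of 82 (64.6%) had fewer than 50% single-place windows, against 4.13% of 20445 genes. Across members, Spearman's rho between this share and mean exon FPKM was 0.43 (0.58 in the small and 0.33 in the large subunit), and with windows of 100 bases 0.55. With mean intron FPKM it was -0.13. Of the 16 members with under 10% single-place windows, 10 had exons below introns in both mice and 2 kept exon signal. Of the 11 members with at least 75%, none had exons below introns and 7 kept exon signal. Among other genes in this range whose introns averaged 0.5 FPKM or more, 1943 of 3853 kept exon signal and 21 had exons below introns. This limit on introns was not applied to the members, so the sets are not alike. In addition, a list of 11 genes cannot tell its counts from that background. The exon medians of the 2 mice were 0.3 and 0.4 in the 16 members with under 10%, and 61.2 and 38.8 in the 11 with at least 75%. The medians of mean intron FPKM in these sets were 1.42 and 1.0. All points come from the same 2 libraries.

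**Figure D3:**
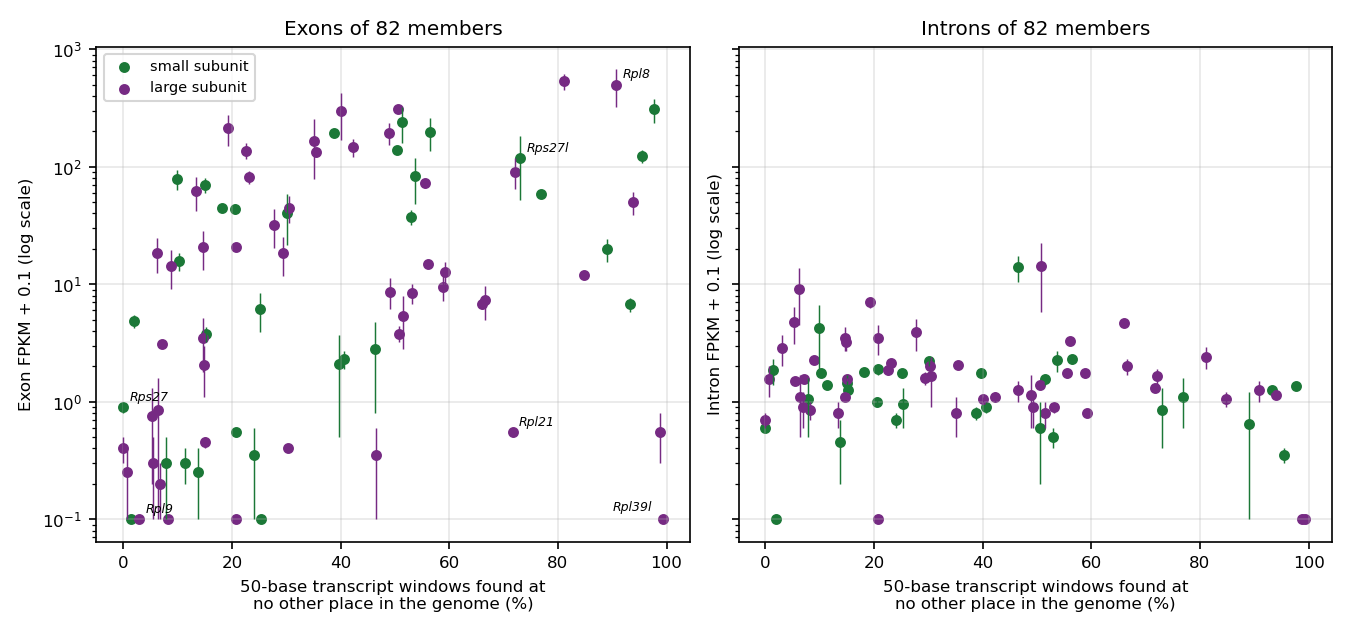
Exon (left) and intron (right) FPKM + 0.1 on a log scale against the percentage of 50-base transcript windows found at no other place in the genome, for the 82 members (points, mean of 2 mice, with lines between the mice). Low exon values gather at the left, where *Rpl9* lies at 0, and intron values show no such trend.

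Outside the family a lower exon median was seen only at low single-place shares. Among other genes whose introns averaged 0.5 FPKM or more, the 16 with under 10% single-place windows had a median exon FPKM of 0.850 and 6 of them had exons below introns in both mice. None of these 16 kept exon signal. The medians were 3.1 in the 40 genes with 10% to 25%, 7.6 in the 82 with 25% to 50%, 12.2 in the 152 with 50% to 75% and 11.7 in the 3853 with at least 75%, of which 21 had exons below introns. Across all 4218 genes with such introns, members included, Spearman's rho between share and mean exon FPKM was -0.04, so no relation was seen over the table, in which nearly all genes have high shares. With windows of 50 bases, exceptions to the relation were found among the members. *Rpl41* had 212.6 ± 89.3 (SD, n = 2) with 19.2%, and *Rps4x*, the X-linked gene of a small subunit protein, 79.9 and 59.5 with 15.1%. *Rpl7a* had 24.6 and 12.3 with 6.14%, but its introns had 13.7 and 4.4. It thus did not keep exon signal, while *Rpl41* and *Rps4x* did. With windows of 100 bases the shares were 54.9% in *Rpl41*, 56.0% in *Rps4x* and 12.9% in *Rpl7a*, so *Rpl41* and *Rps4x* were low only with the shorter windows. In the other direction *Rpl21* had 0.5 and 0.4 with 71.7% and the largest number of copies, 56. How reads with several places in the genome were counted is not given in the sources used here, and its part in the exon values was not tested.

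The paralogs put genes of related sequence side by side. *Rps27* and *Rps27l* both encode a zinc-binding protein of the small subunit, and their coding sequences, of equal length, are 76.1% identical. *Rps27*, with no single-place window, had 0.9 and 0.7 exon FPKM, about 5 and 2 reads. *Rps27l*, with 73.0%, had 52.3 and 182.9, about 362 and 637 reads, so that the values of the pair do not overlap. The reverse held for *Rpl39* and *Rpl39l*, whose coding sequences are 85.3% identical. *Rpl39* had 79.3 and 253.9 with 35.1% single-place windows and 8 copies, and *Rpl39l*, a gene known from testis, was listed at 0 in exons and introns with 99.3%. *Rpl3* had 19.5 and 9.0 with 8.84% single-place windows, and its striated muscle paralog *Rpl3l* had 0.7 and 0.2 with 98.7% and no intron signal. A high share of single-place windows was thus not by itself accompanied by signal. *Rpl22* had 61.2 and 38.8 and *Rpl22l1* 55.8 and 32.9, so that *Rpl22* was slightly higher in each mouse while the ranges overlap. *Rpl7* had 158.0 and 116.0, above the 12.1 and 11.8 of *Rpl7l1*, a gene linked to ribosome production. *Rpl10* and *Rps4x* are given above, and their paralogs are not among the listed symbols.

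The mice differed more in these genes than the typical gene did. Over the 59 members whose exon FPKM averaged 1 or more, the median log2 ratio of replicate 2 to replicate 1 was -0.43 on the log2(FPKM + 1) scale, against -0.08 over 9845 genes. Replicate 2 was lower in 42 and higher in 17 of the 59. More than 2-fold lower were 12 members, against 4.82% of all genes, and more than 2-fold higher were 3, against 1.08%. With both mice brought to the same summed exon FPKM the median was -1.46 over the members and -0.90 over all 9845 genes. This rescaling multiplies all genes of a mouse by the same factor, so it could hardly change the place of the members beside the table. As deposited, the median was -0.36 in the small and -0.51 in the large subunit. The lowest ratios among members with a mean of at least 10 were found in *Rps19* (58.5 and 21.4), *Rplp1* (424.5 and 168.4) and *Rps9* (118.2 and 48.1), with log2 ratios of -1.41, -1.33 and -1.28. *Rps19* is known as the gene most often mutated in Diamond-Blackfan anemia. The highest were found in *Rps27l* (1.79), *Rpl39* (1.67) and *Rps20* (15.3 and 24.4, 0.64).

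These ratios moved with the GC content of the exons, with a rho of -0.61 over the 59 members and -0.66 over 9839 genes. The 20 members with the lowest GC content, up to 49.1%, had a median log2 ratio of -0.04, the 19 in the middle -0.47, and the 20 with the highest, above 53.9%, -0.94. Other genes in the same GC ranges had medians of 0.18, -0.14 and -0.53, so the members were lower than other genes in each range. Both mice are of 1 genotype, and the summed markers of milk secreting epithelium were higher in replicate 2. The part of GC content and of the milk transcripts in these differences was not tested.

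**Figure D4:**
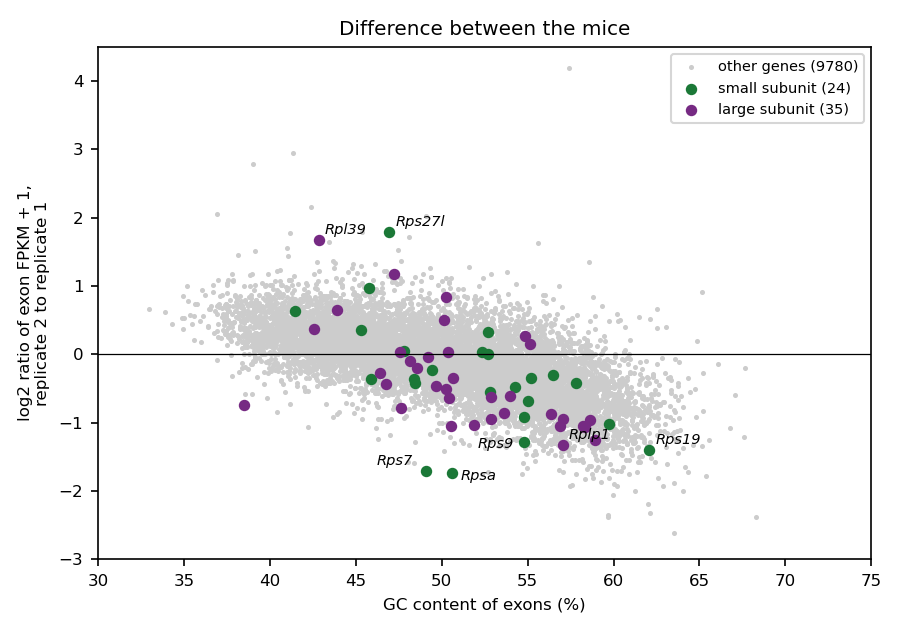
The log2 ratio of exon FPKM + 1, replicate 2 to replicate 1, against the GC content of exons, for 24 small subunit (green) and 35 large subunit members (purple) whose exon FPKM averaged 1 or more, and for 9780 other genes (gray). Ratios of members fall with GC content, with *Rps27l* (1.79) highest and *Rpsa* (-1.75) and *Rps7* (-1.72), both of low exon FPKM, lowest.

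Other genes tied to the ribosome showed both patterns. *Rack1*, a scaffold protein of the small subunit head with 97.4% single-place windows, had 179.5 and 184.9 exon FPKM. *Fau*, which encodes a ribosomal protein fused to a ubiquitin-like protein, had 0.4 and 0, with introns of 1.5 and 1.0 and a single-place share of 1.93%. *Rpl36al* was listed at 0 in exons and introns. Of 16 other genes with TOP mRNAs, 12 kept exon signal. The background was 36.8% of all genes with signal and 49.5% of those whose introns averaged 0.5 FPKM or more. Exons were below introns in 1 of the 16, against 0.862% and 1.37%, which a list of this size cannot tell from that background. This was *Tpt1*, with 0.6 and 0 and a single-place share of 20.5%. The 16 genes had a median exon FPKM of 30.2. *Eef1a1*, the elongation factor that delivers aminoacyl-tRNA, had 731.2 and 799.7 with 7 copies and 26.8% single-place windows, and *Eef2*, which drives translocation, 764.1 and 340.6 with 88.7%. A low single-place share alone was thus not always accompanied by low exon signal outside the family either.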

How the data were processed

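Total RNA of 2 wt/Wap-Tbrg4 L10 mammary glands was prepared with a TruSeq Stranded Total RNA kit and sequenced on a HiSeq system. The authors mapped reads to mm10 with STAR, counted them with HTSeq on collapsed exons and introns of UCSC known genes, and generated FPKM values with DESeq2, as the submitters' processing notes and the methods state. Tool versions, strand setting and treatment of reads with several places are not given in the sources used here. The deposited FPKM were used as they are, and chromatin libraries of the series were not used. Of 20550 listed genes, 35 had no usable symbol. Gene positions, lengths and sequences came from RefSeq on GRCm38, with RefSeq Select transcripts where tagged, and 20445 genes matched. Copies were found with minimap2 2.31. Tables were made with Python 3.11.15, pandas 2.3.3, numpy 2.4.6 and scipy 1.17.1, windows with numba 0.67.0, alignments of paralogs with Biopython 1.88 and plots with matplotlib 3.10.9. The value of 1 read was estimated from exons and introns of 200 to 700 bp with 0.3 to 3 FPKM, of which 84.0% and 92.5% lay within 0.25 reads of a whole number. The window search and this estimate were tested on simulated data. In the latter, a step of 0.1 was estimated as 0.1 to 0.1005 and a step of 0.2 as 0.1995 to 0.201. No test was made, since there is 1 group of 2 mice. Members, gene lists and rules were chosen with earlier results of these data known. The genes named are the 10 highest and those at 0 in exons, the 10 lowest exon to intron ratios where introns averaged 1 FPKM or more, the 5 highest introns, the 3 largest differences between mice in each direction, stalk genes and *Rpsa*, paralogs with parents, members without a copy, and members next to the ratio of 10. *Rps6*, *Rps7*, *Rps16*, *Rps23*, *Rps29* and *Rpl21* were added after their values were seen, as was the limit of 0.5 FPKM on introns. Some genes that the rule takes are counted but not reported by name here.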

Additional observations from a re-analysis of the deposited data

How the results depend on the processing

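Of 47 alternative values computed, 27 stayed within 1.5 times the count or within 1 SD between the mice, and 20 moved further. A mean of 2 mice with 1 left out lies within 1 SD by construction, so such values say nothing of stability, and counts and shares cannot change direction. The count of 34 members that kept exon signal ranged from 28 at a ratio of at least 20 to 41 at a ratio of at least 5, and was 36 to 39 with 1 mouse left out. The count of 19 with exons below introns was 21 to 22 with 1 mouse left out. With a pseudocount of 1 FPKM the median log2 exon to intron ratio was 3.18 in the small and 2.12 in the large subunit, and over members whose exon FPKM averaged 1 or more it was 5.33 and 3.98. Those members had a median exon FPKM of 44.3 and 20.7, and scaling every mouse to the same sum, 1000000, gave 15.05 and 9.29. Without the paralogs the small subunit median was 15.6. With 1 mouse left out, the small subunit medians were 3.66 to 3.75 for the ratio and 16.8 to 17.1 FPKM. The share of summed exon FPKM was 2.96% without the 10 highest genes and 0.239% to 0.694% with 1 mouse left out. The median log2 ratio between the mice was -0.27 without a filter on low values and -1.46 after rescaling to equal sums, which divides replicate 2 by its larger sum. For this ratio a change of 0.1 was taken as the limit. The correlation with copies was -0.24 at 90% identity and -0.24 with the longest transcript. It was -0.43 and -0.55 with the share of 50-base and 100-base windows found elsewhere, both added after seeing the data. No paired analysis was possible because both mice belong to 1 group.

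A group of 2 mice gives no test, and values under about 3 reads, 0.299 FPKM over 1 kb in replicate 1 and 0.593 in replicate 2, are not told from 0. Read numbers rest on RefSeq lengths, and the authors counted on UCSC gene models.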

Other observations

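The genes that make ribosomes were listed beside the members. Of 19 ribosome production genes, 10 kept exon signal (36.8% of all genes with signal did) and none had exons below introns in both mice (0.862% of all genes), which a list of this size cannot tell from that background, with median exon FPKM of 5.7 in replicate 1 and 6.1 in replicate 2 and a median of 98.1% single-place windows. *Nop10*, a small protein of the pseudouridylation complex, had 16.8 and 39.3 exon FPKM, and its partner *Nhp2* 32.4 and 21.1. *Ncl*, the nucleolar protein nucleolin, had 11.1 and 10.0, and *Myc*, a regulator of ribosome production, 5.7 and 6.3. *Fbl*, the methyltransferase fibrillarin, was the lowest of the list with 0.4 and 0, introns of 0.4 and 0.3, 1 near-identical copy and the lowest share of single-place windows of the list.

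The 78 mitochondrial ribosomal protein genes, which encode proteins of a separate ribosome and mostly have no near-identical copy (63 of 78), had a median exon FPKM of 9.82, close to the 12.2 of the 82 cytosolic genes. Their values ran from 0 to 60.5, with quartiles of 4.75 and 19.1. Of the 78, 58 kept exon signal, against 36.8% of all genes with signal. None had exons below introns in both mice, and at the background of 0.862% few or none would be found in a list of this size. Their median intron FPKM was 0.325.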
